A study of Mus musculus with 7 samples.

Results

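Cdk4 and Tspan31 are neighbouring genes on mouse chromosome 10 that run toward each other on opposite strands and overlap at their 3′ ends. Both were found in the islet count table by their Ensembl IDs, and they made up 2 of its 48440 genes. Cdk4 passed the filter on low counts and Tspan31 did not. The pair was chosen by the log2 fold change of Cdk4 between VLX-1005 and vehicle, known from these same counts, and by the place of Tspan31 opposite it. Every value of that contrast for these genes is therefore a description and carries no test.

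The islets came from NOD.hALOX12 mice, nonobese diabetic animals whose Alox15 coding region carries the human ALOX12 sequence in its place under mouse regulatory elements, in every cell of the body and in both groups. Animals were given VLX-1005, an inhibitor of human 12-lipoxygenase, at 30 mg/kg per day (3 libraries) or vehicle (4 libraries) for 4 weeks. The study describes them as female, prediabetic and dosed by mouth at 6 to 10 weeks of age. Islets were handpicked after collagenase digestion and rested overnight, and since no label ties a library to an animal of its own, spread between libraries may be partly technical.

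Cdk4 encodes a cyclin-dependent kinase. Together with a D-type cyclin it phosphorylates the retinoblastoma protein, which frees E2F transcription factors and lets a cell leave G1 and copy its DNA, while the INK4 and CIP/KIP proteins hold it back. In mouse islets this kinase is central to postnatal beta cell growth: animals without Cdk4 become diabetic with few beta cells, and animals with a Cdk4 that INK4 inhibitors cannot bind develop beta cell hyperplasia. Tspan31 encodes a tetraspanin, a small multi-pass membrane protein. In human sarcomas it is amplified along with CDK4, and in human cancer cells it has been described as a natural antisense gene of CDK4.

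In GENCODE M21 on mm10, Cdk4 (ENSMUSG00000006728.12) spans chr10:127063534-127067920 on the plus strand and Tspan31 (ENSMUSG00000006736, version 8 in the table) spans chr10:127067280-127070264 on the minus strand. Their exons share 641 bp, at chr10:127067280-127067920. The shared stretch holds no coding base of either gene and lies in the 3′ untranslated part of the last exon of both. It makes up 19.7% of the 3249 bp of Cdk4 exon and 29.2% of the 2193 bp of Tspan31 exon. Of the annotated transcripts, 2 of 9 for Cdk4 and 1 of 5 for Tspan31 reach into it. In RefSeq on the same assembly, Cdk4 ends sooner and the genes share 2 bp. The extent of the overlap therefore depends on the annotation, and the release used for counting is not given in the sources used here.

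**Figure D1:**
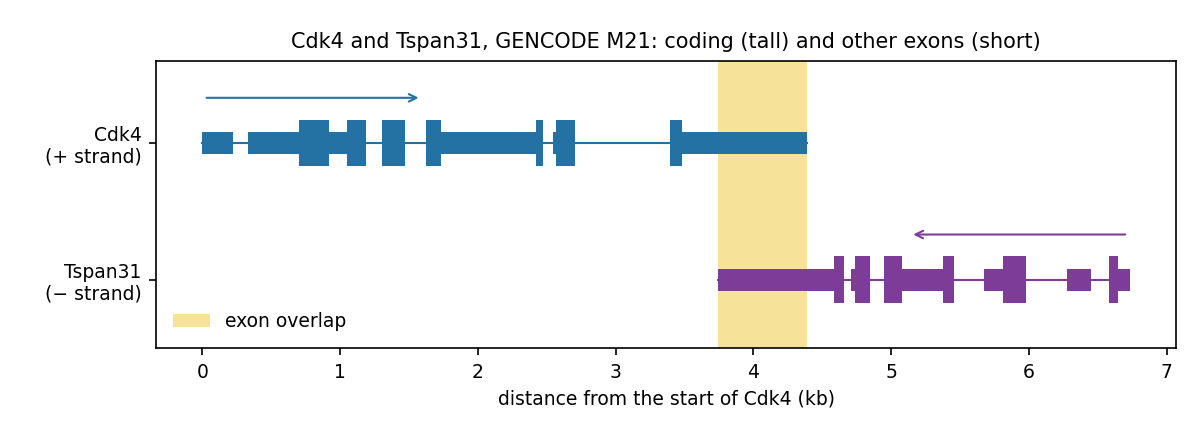
Exons of Cdk4 (upper, plus strand) and Tspan31 (lower, minus strand) from all M21 transcripts, by distance in kb from the start of Cdk4. Tall boxes are coding, short boxes are other exon, arrows show the direction of transcription, and the shaded band is the 641 bp where the exons overlap beyond the last coding base of each gene.

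The starts used for the promoter windows lie 6726 bp apart. The start used for Tspan31 lies 711 bp inside the span that RefSeq gives for the whole gene, so another of its transcripts may start further out. Both windows are shown because they tell the genes apart where the shared 3′ ends do not. Each sequence runs from 250 bases before the start to 50 after it, taken from RefSeq on GRCm38.p6 (chr10:127063285-127063584, plus strand, for Cdk4 and chr10:127070212-127070511, minus strand, for Tspan31). Capitals mark CACGTG in the first and CCAAT or its reverse complement ATTGG in the second.
Cdk4: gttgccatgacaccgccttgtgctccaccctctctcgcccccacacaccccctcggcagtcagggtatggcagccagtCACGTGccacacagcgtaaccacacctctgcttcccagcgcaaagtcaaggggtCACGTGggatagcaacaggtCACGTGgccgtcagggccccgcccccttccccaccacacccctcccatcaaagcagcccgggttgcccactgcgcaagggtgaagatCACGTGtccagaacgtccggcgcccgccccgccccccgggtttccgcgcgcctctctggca
Tspan31: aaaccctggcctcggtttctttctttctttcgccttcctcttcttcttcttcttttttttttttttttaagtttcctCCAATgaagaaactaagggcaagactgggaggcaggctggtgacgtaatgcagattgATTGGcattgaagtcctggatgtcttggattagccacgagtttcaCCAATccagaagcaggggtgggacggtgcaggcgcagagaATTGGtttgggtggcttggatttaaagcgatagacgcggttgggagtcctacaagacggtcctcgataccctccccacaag
CACGTG, an E-box letter pattern that reads alike on both strands, occurred 4 times before Cdk4 and 0 times before Tspan31. It was present in 7.15% of 32851 promoters of this length, and 0.0244% held at least 4 copies. CCAAT on either strand occurred 4 times before Tspan31 and 0 times before Cdk4. It was present in 37.4% of promoters, and 1.06% held at least 4 copies. GGGCGG or its reverse complement occurred 3 times in the Cdk4 window, counting the bases after the start, and 0 times in the Tspan31 window. At least 1 copy was in 35.7% of promoters, and 10.7% held at least 3. TATAAA, also searched on both strands, was in neither window and was in 13.6% of promoters. No match of one pattern overlapped a match of another. These are letter matches in a window and were not tested as binding sites.

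Libraries held 1024586 to 1430785 counts. Levels are given as CPM, the usual unit for counts set against the size of their library, after scaling by TMM factors (a trimmed mean of log ratios between libraries). The 11 beta cell marker genes all had counts, with a summed level of 173 to 311 CPM with VLX-1005 and 259 to 356 CPM with vehicle. Of 8 T cell markers 6 had counts, summing to 0.79 to 1.39 CPM with VLX-1005 and 0.797 to 4.24 CPM with vehicle, and Cd3g and Cd2 were at 0. Of 6 B cell markers 1 had counts (0 to 4.74 CPM with VLX-1005, 0 with vehicle). Alpha, delta and PP cell markers summed to 125 to 286 CPM with VLX-1005 and 191 to 255 CPM with vehicle, duct markers to 58.9 to 90.5 and 69.3 to 97.5 CPM, and acinar markers to 35.4 to 117 and 35.8 to 103 CPM. Macrophage and dendritic cell markers summed to 275 to 312 CPM with VLX-1005 and 249 to 320 CPM with vehicle, with Adgre1 and Mrc1 at 0. Of these 8 markers only 1 passed the filter on low counts, and it has an exon opposite another gene. The median total was 1 count per marker over the 7 libraries, so the sum does not stand for the list as a whole. Stellate and endothelial markers were the 1 list whose groups did not overlap, at 7.90 to 9.73 CPM with VLX-1005 and 2.39 to 6.79 CPM with vehicle. Dcn and Acta2 were at 0. Of these 9 markers 0 passed the filter on low counts, and the median total was 3 counts per marker over the 7 libraries. Among tested genes, 9.48% likewise had groups that did not overlap, with VLX-1005 higher. A difference in these cells is therefore not read from the sums. The part of stellate and endothelial markers in the Cdk4 values was not tested. The share of counts on ribosomal RNA genes was 2.55%, 3.14% and 2.15% in the VLX-1005 libraries, and between 1.69% and 2.11% in the vehicle libraries.

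Which strand the counts stand for bears on every value of the pair. The kit marks strand, and the strand setting of the counting is not given in the sources used here. Genes that islet cells read strongly had few counts. Ins2, an insulin gene, had 448 counts over the VLX-1005 libraries and 757 over the vehicle libraries, and the actin gene Actb had 24 and 18. Summed with Eef1a1, Gcg and Ins1, which like them have no exon on the other strand, these genes took 0.0253% to 0.05% of a library with VLX-1005 and 0.0386% to 0.0511% with vehicle. Ranked by total count, 99 of the top 100 genes had exons opposite those of another gene, as did 81% of tested genes and 17.5% of all genes in the table.

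A strand-specific library counted with the opposite setting would put reads of Tspan31 that fall in the shared 641 bp into the Cdk4 row, and reads of Cdk4 from there into the Tspan31 row. The counts alone do not say which gene's RNA either row holds. Names below are therefore those of the rows, and under the opposite setting every level, rank, ratio and fold change of the Cdk4 row would describe RNA from the Tspan31 strand. Set against the shared stretch alone, the Cdk4 row stood at 2484 CPM per kb with VLX-1005 and 3079 CPM per kb with vehicle, and the Tspan31 row at 6.92 and 4.73 CPM per kb. The same limit holds for each other gene named with an opposite gene, and a gene with none would then show no reads of its own.

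Nearly all counts of the pair were in the Cdk4 row. The Cdk4 row held 2455, 1343 and 2236 counts in VLX-1005 replicates 1 to 3, against 2082, 2489, 2108 and 2788 counts in vehicle replicates 1 to 4. The Tspan31 row held 7, 3 and 7 counts in the VLX-1005 libraries, against 5, 6, 0 and 4 counts in the vehicle libraries. The Tspan31 row was thus close to the limit of detection in every library, and its groups overlapped.

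The Cdk4 row took 0.131% to 0.213% of all counts of a library. By mean CPM it ranked 61st of 48440 genes and 20th of 21683 protein-coding genes, with 1810 CPM over the 7 libraries against a median of 42.5 CPM over tested genes. Per length it stood at 557 CPM per kb of Cdk4 exon, the 29th level among protein-coding genes. The Tspan31 row stood at 1.66 CPM per kb, 2786th among them. The counts of the table do not say where along the exons the reads lay.

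On the CPM scale the Cdk4 row had 1702, 1307 and 1767.2 CPM in VLX-1005 replicates 1 to 3, against 1766.3, 1949.7, 1956.8 and 2221 CPM in vehicle replicates 1 to 4. The highest library was vehicle replicate 4 and the lowest VLX-1005 replicate 2, a span of 1.70-fold. VLX-1005 replicate 3 lay 0.984 CPM above vehicle replicate 1, so the groups touched at that point and overlapped. With counts divided by library totals alone, the values were 1716, 1311 and 1749 CPM against 1777, 1903, 1832 and 2128 CPM, and there the groups did not overlap. Of the 4218 tested genes, 6.14% had all VLX-1005 libraries below all vehicle libraries on that second scale and 8.16% on the TMM scale.

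In order of level, vehicle replicate 4 (95% Poisson interval 2139 to 2305 CPM) stood clear of the rest. Vehicle replicates 3 and 2 (1874.2 to 2042 and 1873.9 to 2028 CPM) did not differ beyond counting error. Nor did VLX-1005 replicate 3 (1695 to 1842 CPM), vehicle replicate 1 (1691 to 1844 CPM) and VLX-1005 replicate 1 (1636 to 1771 CPM). VLX-1005 replicate 2 (1238 to 1379 CPM) stood below all of them. The intervals cover counting error only, since reads carried no molecular identifiers. The coefficient of variation was 15.6% with VLX-1005 (n = 3) and 9.48% with vehicle (n = 4), against 2.29% and 2.07% from counting alone.

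The Cdk4 row averaged 1592 ± 249 CPM with VLX-1005 (SD, n = 3) and 1973 ± 187 CPM with vehicle (n = 4). The log2 fold change of VLX-1005 over vehicle was −0.31 ± 0.13 (SE), a level 0.807 times that of vehicle. Of the tested genes, 17.8% had a log2 fold change below this one, and the median over all of them was −0.01. Of the 1 member tested, 0 were called by edgeR at an adjusted p below 0.05, where 2.37% of tested genes were called (2.35% higher with VLX-1005 and 0.0237%, 1 gene, lower). At an unadjusted p below 0.05 the edgeR count was 1 of 1, where 18% of tested genes lay, and 5.97% lay on the lower side. Nothing is read from either count, since this contrast was known when the gene was chosen. In bulk islets, fewer cells of a type and less RNA per cell cannot be told apart.

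The size of the Cdk4 value moved with VLX-1005 replicate 2, the library with the lowest Cdk4 level and the highest share of ribosomal RNA. Without it the log2 fold change was −0.18 ± 0.11, and with the ribosomal RNA share as a covariate it was −0.09 ± 0.16. It was negative under all 15 other settings and was called in 0 of them.

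The Tspan31 row averaged 4.44 ± 1.36 CPM with VLX-1005 (SD, n = 3) and 3.03 ± 2.12 CPM with vehicle (n = 4). Over each group the row held 17 counts of 3733566 with VLX-1005 and 15 counts of 4940527 with vehicle. The ratio per library total was 1.5, with an exact 95% counting interval of 0.705 to 3.22, so a difference was not detectable at this depth. The count of 0 in vehicle replicate 3 allows up to 3 counts, or 2.78 CPM after TMM scaling, which is close to the level in VLX-1005 replicate 2 (2.92 CPM). Fitted without a filter on low counts, its log2 fold change was 0.51 ± 0.78 (SE).

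**Figure D2:**
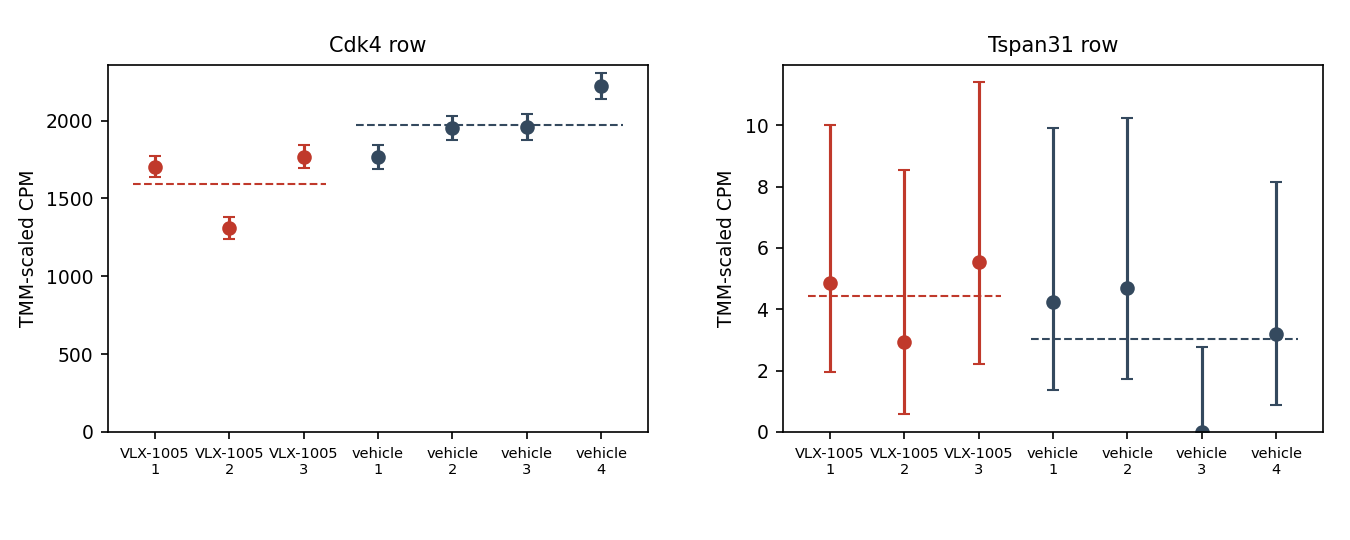
Levels of Cdk4 (left) and Tspan31 (right) in TMM-scaled CPM, 1 point per library, with 95% Poisson intervals of the count (for a count of 0, the limit of 3 counts) and dashed lines at the group means (VLX-1005, red; vehicle, dark). Cdk4 runs between 1307 and 2221 CPM and Tspan31 between 0 and 5.53 CPM, and the groups overlap in both panels.

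Because both genes were counted in the same library, their ratio does not depend on library scaling. For each Tspan31 count there were 351, 448 and 319 Cdk4 counts in VLX-1005 replicates 1 to 3, against 416, 415 and 697 in vehicle replicates 1, 2 and 4. Vehicle replicate 3, with 0 Tspan31 counts, gives at least 703, set against the 3 counts that a count of 0 allows in that library. The VLX-1005 value of 448 lay above those of vehicle replicates 1 and 2, so the groups overlapped.

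Tspan31 made up 0.284%, 0.223% and 0.312% of the counts of the pair in the VLX-1005 libraries, against 0.24%, 0.24%, 0% and 0.143% in the vehicle libraries. For vehicle replicate 3 the same 3 counts allow a share of up to 0.142%, which lies inside the exact (Clopper-Pearson) 95% interval of VLX-1005 replicate 2 (0.046% to 0.65%). Over the summed counts the share was 0.281% with VLX-1005 (exact 95% interval 0.164% to 0.449%) and 0.158% with vehicle (0.0886% to 0.261%), and these intervals overlapped. Per kb of exon, the Cdk4 row exceeded the Tspan31 row by 240-fold with VLX-1005 and by 426-fold with vehicle, folds that rest on reads lying in the exons of the gene named. On the log2 scale, with 0.5 added to each count, the ratio averaged 8.39 ± 0.18 with VLX-1005 (SD, n = 3) and 9.62 ± 1.65 with vehicle (n = 4). The difference of −1.23 was smaller than the pooled SD of 1.28, and without vehicle replicate 3 it was −0.42. With the rows exchanged, the ratio of Cdk4 to Tspan31 would average −8.39 with VLX-1005 and −9.62 with vehicle, and the difference would be 1.23.

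**Figure D3:**
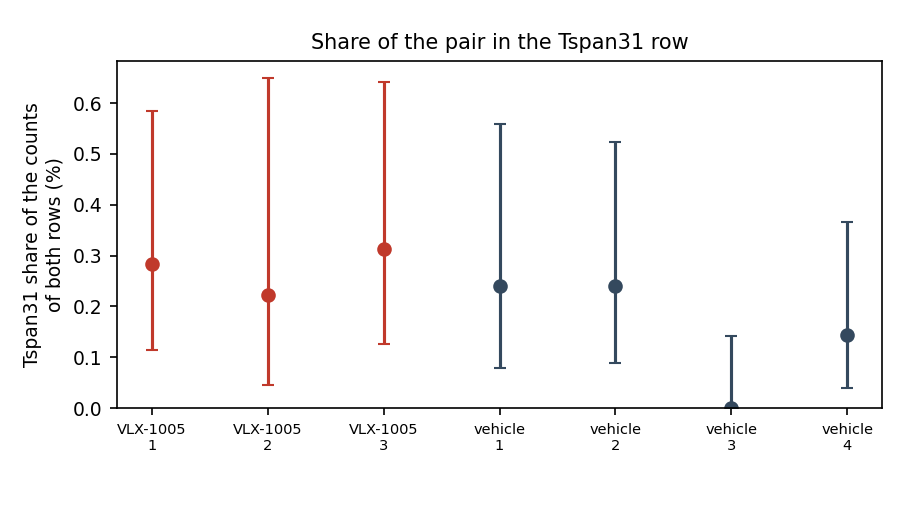
Share of the counts of Cdk4 and Tspan31 together that fell on Tspan31, in percent, 1 point per library with its exact 95% interval, or for vehicle replicate 3 the limit of 3 counts (VLX-1005, red; vehicle, dark). All points lie at or below 0.312%, and the intervals of the VLX-1005 libraries overlap those of all vehicle libraries.

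Such a one-sided split was common but not general among overlapping genes. The table held 1479 pairs of protein-coding genes with exons overlapping on opposite strands, and 1128 of them had a summed count of at least 100 over the 7 libraries. In those the higher member held a median of 93.9% of the counts of its pair (quartiles 77.9% and 98.7%), and in 248 of them (22%) it held at least 99%. The Cdk4 row held 99.8%, and 87 of the 1128 pairs were more one-sided. By summed count Cdk4 and Tspan31 ranked 25th of 1479 pairs, and 18th of the 829 that overlap tail to tail. In 580 of the 1128 pairs the higher member had the longer exons, as Cdk4 does.

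Pairs of like count differed widely in their split. Just above by summed count, Gm17509 held 99.6% of the counts it shared with Emb, Ntan1 81.9% of those shared with Pdxdc1, and Srr, the serine racemase gene, 82.2% of those shared with Tsr1. Just below, Gins2, which encodes a subunit of the replicative helicase complex, held 98.6% of the counts it shared with Gse1. Slirp held 75.7% of those shared with Alkbh1, and Acat3 80.5% of those shared with Tcp1, a chaperonin subunit gene.

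As counted, the high level of the Cdk4 row stood alone among the genes around it. Among the 5 protein-coding genes on each side, the level per length ran from 0 (Arhgef25) to 10.5 CPM per kb (Tsfm, a mitochondrial translation elongation factor gene), and Cdk4 stood 53.2 times above the highest of them. Cdk4 took 94.8% of the counts of all 12 genes. Tspan31, at 1.66 CPM per kb, lay within the range of the neighbours, of which 4 stood above it. Cyp27b1, March9, Agap2, Os9 and Arhgef25 have no exon on the other strand, so the limit given above for genes with none holds for them. Tsfm shares 165 bp with Avil and Mettl1 shares 100 bp with Eef1akmt3, while B4galnt1 and Slc26a10 share 715 bp with each other. The part of these overlaps in the levels was not tested.

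Of these 10 neighbours 4 could be tested, and 0 were called by edgeR or by DESeq2 (1 at an unadjusted p below 0.05 in edgeR). Of all tested genes edgeR called 2.37%, and 18% had an unadjusted p below 0.05. Os9, which encodes a lectin of endoplasmic reticulum-associated degradation, had 37, 30 and 23 counts with VLX-1005, against 18, 7, 14 and 20 counts with vehicle. All VLX-1005 libraries lay above all vehicle libraries, as for 9.48% of tested genes, with a log2 fold change of 0.97 ± 0.37 (SE; edgeR adjusted p = 0.199). Tsfm (−0.07 ± 0.32), Mettl1, a tRNA methyltransferase gene (0.16 ± 0.38), and Agap2 (−0.27 ± 0.46) had log2 fold changes within their errors (edgeR adjusted p of 0.807 to 0.931). The other 6 had few counts, summing over the VLX-1005 and the vehicle libraries to 8 and 26 for Eef1akmt3, 2 and 5 for Cyp27b1, the vitamin D hydroxylase gene, and 13 and 12 for March9. Eef1akmt3, which overlaps Mettl1 on the other strand, had 4, 3 and 1 counts with VLX-1005, against 4, 7, 7 and 8 with vehicle. Its CPM did not overlap between groups, though replicate 1 had 4 counts in both. The share on that side was 8.16% among tested genes, which do not include Eef1akmt3. The rest summed to 6 and 4 for B4galnt1 and 18 and 8 for Slc26a10, and Arhgef25 had 0 in every library.

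**Figure D4:**
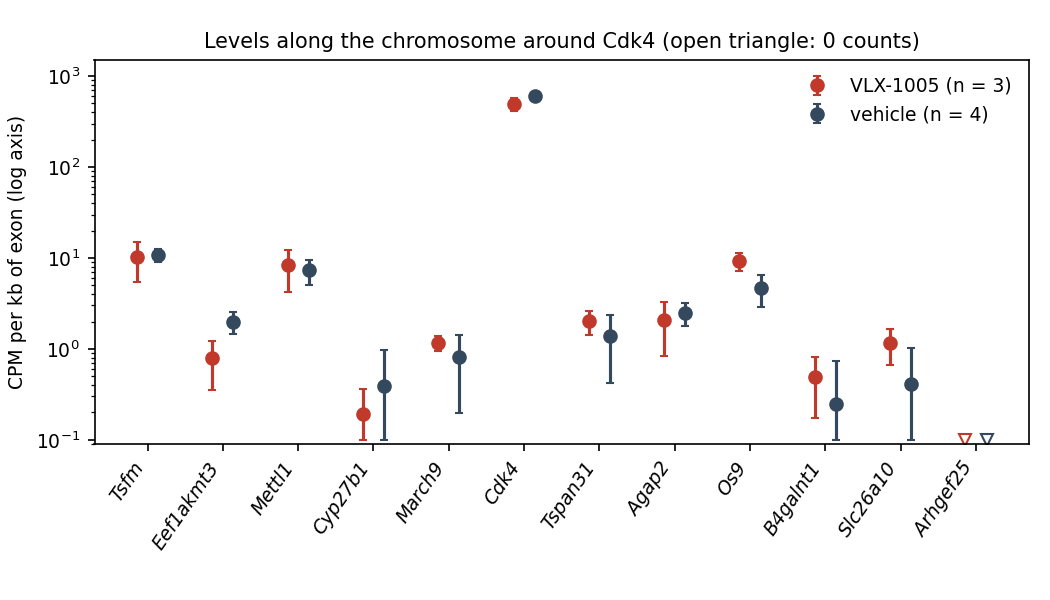
Mean level per kb of exon (CPM per kb, log axis) of Cdk4, Tspan31 and the 5 protein-coding genes on each side, in chromosome order, for VLX-1005 (red, n = 3) and vehicle (dark, n = 4). Bars are SD and stop at 0.1 where they would run lower, and open triangles mark a gene with 0 counts. As counted, the Cdk4 row stands 53.2 times above the highest neighbour.

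The kinase acts in a chain of cyclins, inhibitors, Rb and E2F proteins, and 89 other genes of that chain were followed in 5 lists. As counted, none matched the level of the Cdk4 row. The highest, Ccnh, reached 49.2 CPM per kb, so Cdk4 stood 11.3 times above it, and the median total over the 7 libraries was 6 counts per gene, with 17 genes at 0 throughout. Of the 89, 15 could be tested (16.9%, against 8.71% of all genes in the table). Of these 15, edgeR and DESeq2 called 0, where edgeR called 2.37% of all tested genes, and 0 had an unadjusted p below 0.05, where 18% of all tested genes did in edgeR. Their log2 fold changes were positive for 6 and negative for 9, with a median of −0.04, against −0.01 over all tested genes. With counts divided by library totals alone both medians turned positive (0.0056 for the pathway and 0.04 over all genes). The edgeR adjusted p ran from 0.33 to 0.976. Exons on the other strand were present for 12 of the 15 tested and 16 of the 74 untested genes. Most pathway genes with enough counts to test thus lie, as Cdk4 does, opposite another gene. The share over all tested genes was 81%, so this is no trait of the pathway.

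Among cyclins and partner kinases, 5 of 12 genes were tested and 0 passed in edgeR. Ccnd1, which encodes the D-type cyclin that responds to growth factors and lies opposite LTO1, had 108, 106 and 86 counts with VLX-1005, against 110, 111, 88 and 109 counts with vehicle. Its log2 fold change was −0.09 ± 0.19 (SE). Ccnd3, another D-type cyclin gene, opposite Bysl, had between 26 and 28 counts with VLX-1005 and between 26 and 36 with vehicle (−0.20 ± 0.28). Ccnd2, the D-type cyclin gene most needed in mouse beta cells, falls outside the rule for named genes and was chosen after its values were seen. It had 8, 2 and 11 counts with VLX-1005, against 8, 12, 15 and 11 with vehicle (−0.80 ± 0.52, edgeR adjusted p = 0.442). All 3 D-type cyclin genes overlapped between groups.

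Ccne2, the gene of an E-type cyclin that acts after the D-type cyclins, opposite Ints8, had 139 to 198 counts with VLX-1005 and 114 to 207 with vehicle (log2 fold change −0.16 ± 0.18). Ccnh, part of the kinase that activates cyclin-dependent kinases, opposite Rasa1, had 123 to 242 and 145 to 213 (0.07 ± 0.19).

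As counted, the 8 genes listed as inhibitors of cyclin-dependent kinases were near the limit of detection. None of them could be tested, and Cdkn2a and Cdkn2d, both of the INK4 family, had 0 counts in every library. The INK4 gene Cdkn2c had 3 counts over the VLX-1005 libraries and 8 over the vehicle libraries. Cdkn1b, which encodes p27, had 8 and 4, Cdkn1a, which encodes p21, had 4 and 3, and Cdkn3, a phosphatase gene, had 3 and 5. These counts are too few to show a difference in inhibitors. Only 2 of the 8 genes have exons on the other strand, so the limit given above for genes with none holds for the others. Their counts therefore do not show that inhibitor RNA was low.

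Downstream, 4 of 18 Rb and E2F genes were tested and 0 passed in edgeR. Rb1, the retinoblastoma gene that Cdk4 acts on, opposite Rcbtb2, had 309, 214 and 367 counts with VLX-1005, against 302, 290, 156 and 269 counts with vehicle (log2 fold change 0.17 ± 0.20). Rbl2, which encodes the related pocket protein p130, opposite Aktip, averaged 63.4 ± 4.62 CPM with VLX-1005 (SD, n = 3) and 80.6 ± 4.58 CPM with vehicle (n = 4). Its groups did not overlap, as for 8.16% of tested genes with VLX-1005 lower, and its log2 fold change of −0.35 ± 0.18 did not pass (edgeR adjusted p = 0.33). Rbbp4, a histone-binding partner of Rb, opposite Sync, had a log2 fold change of −0.33 ± 0.24, and E2f5, a repressive E2F gene, opposite 1810022K09Rik, one of −0.02 ± 0.23.

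Genes of S phase and mitosis, many of them E2F targets, had 4 of 26 members tested and 10 at 0 in every library, among them Cdk1 and Ccnb1. Exons on the other strand were present for 2 of the 22 untested members, and for neither Cdk1 nor Ccnb1. The limit given above for genes with none holds for the others, so their counts do not show that RNA was low. Ccna2, the A-type cyclin gene, opposite Exosc9, had 168, 86 and 195 counts with VLX-1005, against 133, 196, 178 and 172 with vehicle (log2 fold change −0.26 ± 0.21). Its lowest library was VLX-1005 replicate 2, as for Cdk4. Aurka, a mitotic kinase gene, had a log2 fold change of −0.04 ± 0.19. Mcm7, a replicative helicase gene opposite Ap4m1, had 0.11 ± 0.25, and Pcna, the sliding clamp gene, had 0.24 ± 0.38 on 19 to 26 counts with VLX-1005 and 13 to 27 with vehicle. None passed in edgeR.

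Upstream growth signals had 2 of 25 genes tested. Stat5a, a transducer of prolactin signals, opposite Stat3, had 11, 23 and 12 counts with VLX-1005, against 13, 12, 6 and 5 with vehicle (log2 fold change 0.77 ± 0.51). Gsk3b, a kinase gene that marks D-type cyclins for breakdown, had 0.03 ± 0.39. The untested Igf1r and Irs2, of insulin-like growth factor and insulin signalling, had 32 and 18 counts over the VLX-1005 libraries, against 18 and 19 over the vehicle libraries.

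**Figure D5:**
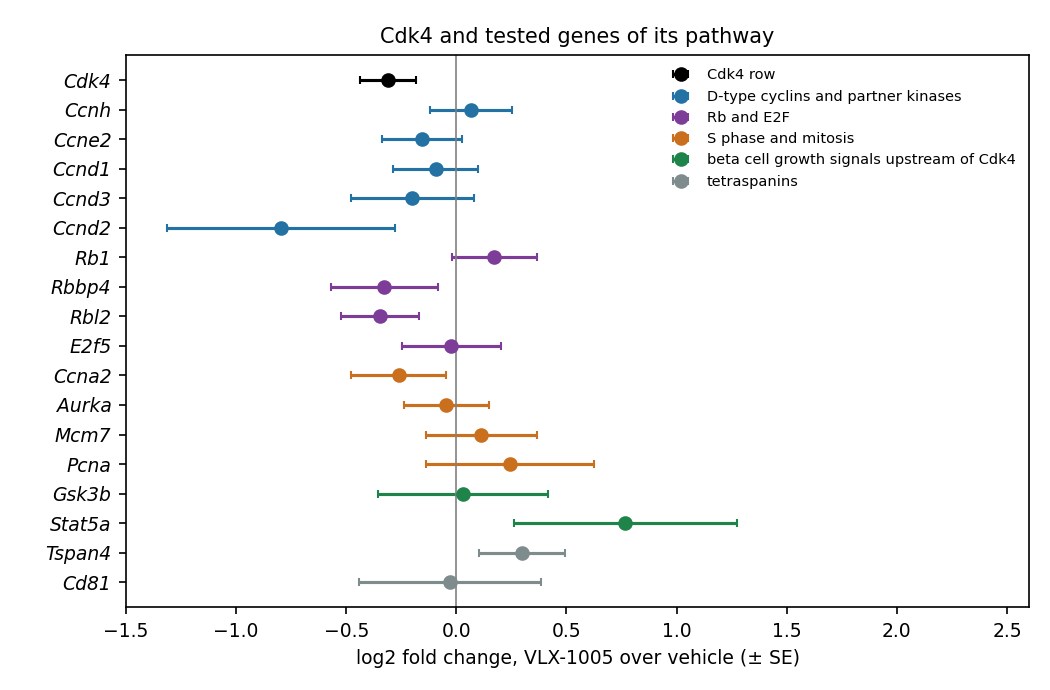
Log2 fold change of VLX-1005 over vehicle (± SE) for Cdk4, the 15 tested genes of its pathway and 2 tested tetraspanin genes, coloured by list. Values lie on both sides of 0, and none of the genes drawn was called by edgeR.

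As counted, Tspan31 was one of many tetraspanin genes with few counts. Of 30 others 25 had at least 1 count, the median total was 4 counts, and 2 were tested, with 0 called by edgeR and DESeq2 and 0 at an unadjusted p below 0.05 in edgeR, against 2.37% and 18% of all tested genes. Tspan4, opposite Chid1, stood at 45.2 CPM per kb, the highest of the family, with 136, 99 and 177 counts with VLX-1005, against 103, 123, 82 and 123 counts with vehicle (log2 fold change 0.30 ± 0.20). Cd81, a widely expressed tetraspanin gene opposite R74862, had 18 to 24 counts with VLX-1005 and 13 to 35 with vehicle (−0.03 ± 0.41). Tspan2 had 17 and 27 counts over the groups and Cd151 19 and 18. At 17 and 15 counts, the Tspan31 row lay at their level. Exons on the other strand were present for both tested tetraspanin genes and for 7 of the 28 untested others. The strand limits given above hold for all of these rows. Few counts therefore do not show that RNA of a tetraspanin gene was low.

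Over the 7 libraries the genes whose log2 CPM ran most like that of Cdk4 were 9530051G07Rik (Pearson r = 0.996), Gm14817 (0.988, opposite Pdzd4), 4732463B04Rik (0.985, opposite Acot4), A230050P20Rik (0.983, opposite Angptl6) and Tceanc2 (0.982, opposite Tmem59). An r of at least 0.9 was reached by 139 of 4217 genes (3.3%), and all share the same libraries and scaling, so these values are a description. Each of the 5 genes was lowest in VLX-1005 replicate 2 and highest in vehicle replicate 4, as Cdk4 was. Their choice by r over the same libraries favours this. Tceanc2 stood at a level near that of Cdk4, with 2024, 1812 and 2049 CPM in VLX-1005 replicates 1 to 3, against 2114, 2232, 2218 and 2436 CPM with vehicle. A230050P20Rik had 158, 98.3 and 150.2 CPM with VLX-1005, against 162, 209.9, 201 and 235 CPM with vehicle. For all 5 the edgeR adjusted p lay between 0.161 (A230050P20Rik) and 0.416 (4732463B04Rik).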

How the data were processed

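Per the labels, 7 islet libraries were compared, 3 with VLX-1005 and 4 with vehicle. The table deposited by the authors gives unnormalized read counts per gene. Trimmomatic, FastQC, HTSeq, DESeq2 and mm10 stand in the submitters' processing notes, and HISAT2 in the study's methods. For versions, strand setting and annotation release, the entry is "not given in the sources used here".

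IDs were matched without their version to GENCODE M21 (48058 of 48440). Exon overlaps came from bedtools 2.31.1 and exon lengths from merged exons of all transcripts. The main test was edgeR's quasi-likelihood F test (version 4.0.16, R 4.3.3, TMM factors, filterByExpr, robust, two-sided, no covariate), with Benjamini-Hochberg adjustment over 4218 genes and calls at 0.05. Chi-square per degree of freedom between libraries ran from 4.28 to 23, so all 7 were kept as separate samples. A count of 0 allows up to 3 counts, or 2.10 to 2.93 CPM.

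Alternatives covered a DESeq2 (1.42.0) fit, other filters and scaling factors, the replicate number as a block, the ribosomal RNA share as a covariate, and omission of each library. The test was checked on simulated data. Members and lists were chosen with earlier results of these data known. Named genes were Cdk4, Tspan31, 5 neighbours on each side, up to 4 members of each list by mean CPM, the 5 tested genes most like Cdk4 by Pearson r of log2 CPM (prior count of 2), and the overlapping pairs ranked next to this one.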

Additional observations from a re-analysis of the deposited data

Results flagged for a closer look

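Among 42 values screened in the vehicle group, 5 had 1 library far from the other 3 in CPM by Dixon's criterion at 95%. For values with a normal spread, chance flags about 1 in 20 groups by that criterion. The value is the gap to the nearest library as a share of the group's range. For B4galnt1 the gap was the whole range (1.0), since vehicle replicate 1 had 4 counts and the others 0. For Cdkn1b it was also 1.0, with 4 counts in vehicle replicate 4 and 0 in the others. For Cdkn1a it was 0.844, with 0 counts in vehicle replicate 1 and 1 count in each of the others. The rate of 1 in 20 does not hold for B4galnt1, Cdkn1b and Cdkn1a, whose counts were tied and near 0. For E2f5 it was 0.922, where vehicle replicate 4 had 64 counts and the others 45 to 54. For Cd81 it was 0.848, where vehicle replicate 3 had 35 counts and the others 13 to 16. Neither Cdk4, Tspan31 nor their ratio was among these values.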

How the results depend on the processing

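The Cdk4 log2 fold change of −0.31 stayed negative under 15 alternatives and ran from −0.40 to −0.18 with 1 library left out. It moved by more than the spread between libraries only with the ribosomal RNA share as a covariate (−0.091), and the cause was not tested. The Tspan31 value was 0.51 without a filter and at 1 CPM. The difference in log2 ratio of −1.23 was −0.81 with 2 added to each count and −1.58 to −0.42 with 1 library left out, and could not be computed with nothing added, since 1 count is 0. No pathway gene was called under any alternative. Of 25 other named genes tested, 11 kept their sign under every alternative, 14 did not, and 0 were called in any. Ccnd2, named outside the rule, was not among these 25, and its sign was not followed.

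The 100 genes called over the whole table became 197 with DESeq2, 263 without a filter, 164 at 1 CPM, 0 with the ribosomal RNA covariate (260 at an unadjusted p below 0.05 in edgeR), and 14 to 203 with 1 library left out (29 and 203 on omitting VLX-1005 replicates 2 and 3, and 14, 23, 16 and 18 on omitting vehicle replicates 1 to 4). With the replicate number as a block the count was 19, the Cdk4 value −0.26 and the ratio difference −1.34. Deviations of same-numbered libraries correlated at −0.03, −0.02 and 0.09, within the −0.11 to 0.11 of differently numbered ones. No pairing by number was thus seen, and a shared batch was not tested. The Tspan31 row had 0 to 7 counts a library, so its ratios have wide counting intervals, and which strand the counts stand for was not tested.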
